A study of Mus musculus with 36 samples.

Results

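Notch signalling passes between neighbouring cells. A ligand of the Jagged or Delta-like type on one cell binds a Notch receptor on the next, the receptor is cut by gamma-secretase, and its intracellular part enters the nucleus, where it joins the DNA-binding protein RBPJ and the Mastermind coactivators and switches on genes of the Hes and Hey families, which encode transcriptional repressors. In the fetal testis the pathway is known from interstitial and perivascular progenitors, where active Notch keeps cells undifferentiated and restrains the formation of fetal Leydig cells, the androgen-producing cells of the interstitium. It is also known from endothelium and from mural cells, the pericytes and smooth muscle cells around vessels.

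The genes described here are 10 Notch pathway members, chosen by symbol from the 21699 genes counted at both stages. They are the receptors Notch1, Notch2 and Notch3, the ligands Jag1 and Dll4, and the targets Hes1, Hey1, Hey2, Heyl and Nrarp. All 10 were measured at E11.5 and E12.5 and passed the filter on low counts, which left 14217 and 14348 genes. Within each stage 4 genotypes with 3 libraries each were compared, control and KO gonads of XX and of XY embryos, 24 libraries in all. The KO embryos were homozygous for a deletion of the miR-17~92 cluster, made with a Cre transgene under the CAG promoter, a promoter active in all tissues, so that the deletion was not limited to the gonad. The labels call the controls WT, and whether these carried Cre or a floxed allele is not given in the sources used here. Each library came from 2 pooled pairs of gonads, with the mesonephros attached at E11.5 and removed at E12.5, and the labels give no litter for a pool, so that the tests measure the spread between these pools. Library preparation differed between the stages, so levels were compared only within a stage. In bulk tissue, fewer cells of a type and less RNA per cell cannot be told apart.

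Libraries held between 17150620 and 34077443 gene counts at E11.5 and between 11877379 and 44155275 at E12.5, and the counts of a member in a library ranged from 47 for Hey2 at E12.5 to 11929 for Notch2 at E12.5. Levels are given as CPM, the counts of a gene as a share of its library's total on a fixed common scale, adjusted by edgeR's TMM factors, changes as log2 fold changes of the first group minus the second with their SE, and a gene was called at a false discovery rate (FDR) under 0.05 over all genes tested (edgeR quasi-likelihood test). The row of Mir17hg, the host transcript of the cluster, separated the labelled genotypes. At E12.5 it stood at 13.4 to 37.3 CPM in the 6 control libraries and at 66.7 to 83.8 CPM in the 6 KO libraries, and at E11.5 at 17.6 to 44.6 and 98.2 to 154 CPM. It counts a transcript that is longer than the deleted part, so it does not measure the deletion itself. Amh, the Sertoli cell hormone, separated the control gonads of the 2 sexes at E12.5, with a mean of 951 CPM in XY control and 0.662 CPM in XX control. It stood at 0.900 CPM in XX KO and 2.29 CPM in XY KO, so that it does not check the sex of the KO libraries. At E12.5 XX KO library 2 had the highest chi-square per gene within a group, 84.7 and 84.3 against libraries 1 and 3, which differed from each other by 44.8. At E11.5 XY control library 2 had the highest, 46.6 and 50.1 against libraries 1 and 3, which differed by 27.4. This chi-square grows with the counts of a library, and both libraries held the most counts of their groups, so it does not separate depth from difference.

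The 6 mature miRNAs that the deleted cluster encodes are shown with their seeds (bases 2 to 8) in capitals. Seeds are the bases through which miRNAs mainly recognise target transcripts. Levels of mature miRNAs in the KO gonads were not measured here. The sequences are from RefSeq, the cluster lies on the plus strand of chromosome 14 in GRCm38, and the mature miRNAs span chr14:115043684-115044496.
mmu-miR-17-5p: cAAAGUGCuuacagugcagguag
mmu-miR-20a-5p: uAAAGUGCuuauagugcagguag
mmu-miR-18a-5p: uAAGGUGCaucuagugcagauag
mmu-miR-19a-3p: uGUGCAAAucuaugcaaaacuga
mmu-miR-19b-3p: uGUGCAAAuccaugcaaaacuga
mmu-miR-92a-3p: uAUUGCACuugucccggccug
They fall into 4 seed families, with miR-17-5p and miR-20a-5p sharing a seed, miR-19a-3p and miR-19b-3p sharing another, and miR-18a-5p and miR-92a-3p standing alone. The 3′ UTRs of the 10 members, from 368 bases in Hes1 to 3245 bases in Heyl against a median of 910 bases over 21037 genes, were searched on the transcribed strand for the 7 bases that pair with each seed. These are GCACTTT for the miR-17 family, GCACCTT for the miR-18 family, TTTGCAC for the miR-19 family and GTGCAAT for the miR-92 family. Among the 10, Notch2 alone held a match, to the miR-18 seed, whereas 28.1% of the 21037 genes held a match to at least 1 of the 4. The Notch2 match is shown in capitals with its flanks, on the plus strand of GRCm38 at chr3:98148174-98148180, 730 bases into the 3′ UTR.
Notch2 3′ UTR: cttctgaacctGCACCTTaatttctctcc
A match is a description of letters and not a measured site, and the absence of a match holds for these letters in 1 annotated UTR per gene.

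At E11.5, around the time at which testis determination begins, none of the members was called between XX and XY control gonads by edgeR, against 0.886% of all genes. DESeq2 called Hes1, where it called 439 genes in all and edgeR 126. In XY KO gonads 2 of the 10 were lower than in XY control, the ligand Jag1 and the target Hey1, against 6.81% of all genes, and in XX KO gonads Hey1 alone was lower than in XX control, against 1.46%. At E12.5, where tissue and library preparation differed from E11.5, the libraries were fitted on their own, and no test compared the stages. For Jag1, Heyl and Notch3 every XY control library lay above the other 9 libraries, and all 3 genes were lower in XX control and in XY KO than in XY control gonads. Jag1 and Hes1 were higher in XX KO than in XX control gonads. The plot of the 10 members by library shows these levels.

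**Figure D1:**
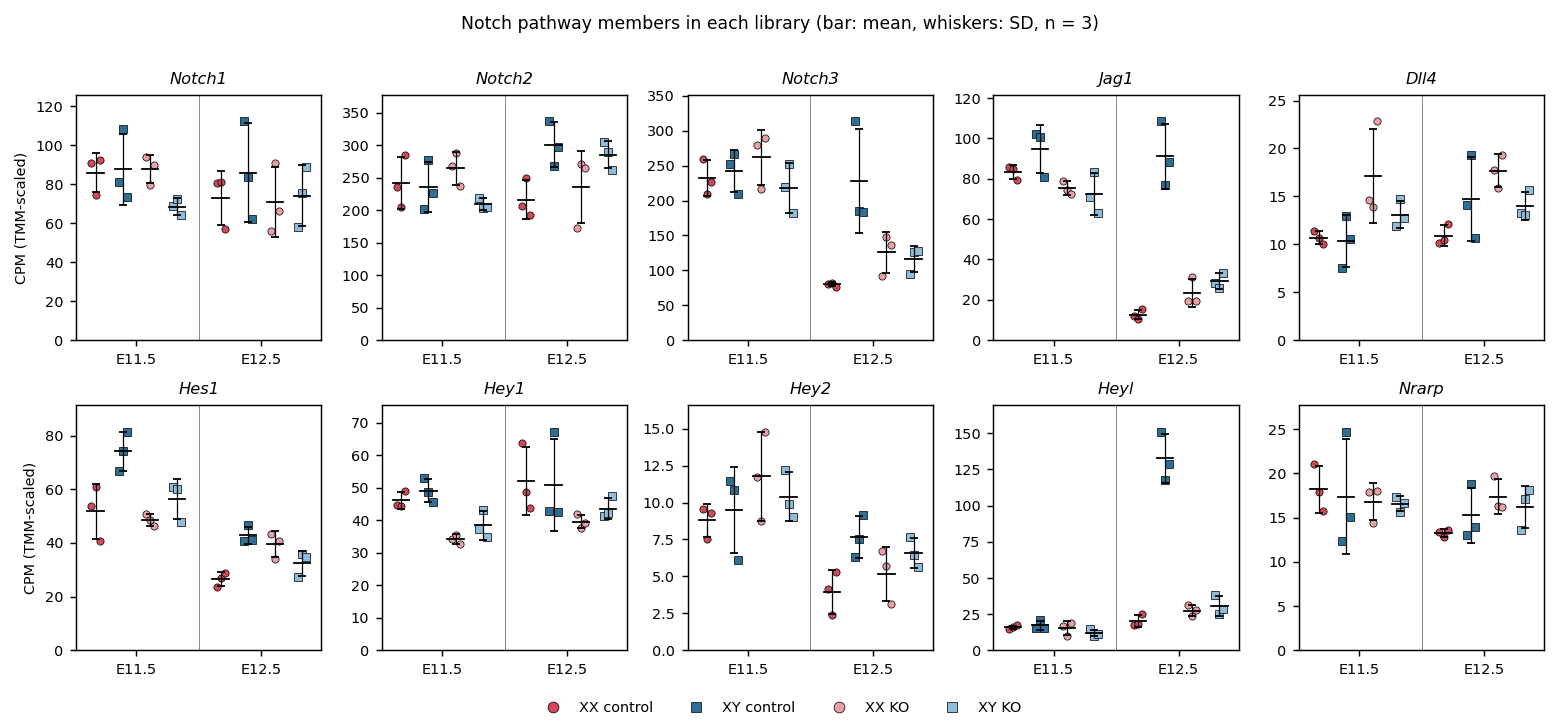
CPM of each of the 10 Notch pathway members (vertical axis, scaled by TMM) in each library at E11.5 and E12.5, with the mean and SD of the 3 libraries of a genotype. Jag1 and Heyl at E12.5 stand at 76.8 to 108 and 118 to 151 CPM in XY control gonads and below 40 CPM in the 9 other libraries.

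Among the receptors, Notch3, which lies on chromosome 17 (chr17:32120820-32166852, GRCm38) and is best known from mural cells, was the one called at E12.5. It stood at 80.5, 82.4 and 76.9 CPM in the XX control libraries, at 313, 185 and 184 CPM in XY control, at 92.1, 148 and 137 CPM in XX KO and at 95.5, 127 and 128 CPM in XY KO. Every XY control library lay above every other library, and the XY control libraries were also the most spread, with the first well above the other two. Notch3 was lower in XX than in XY control gonads by a log2 fold change of -1.51 (SE 0.22, FDR 0.000115) and lower in XY KO than in XY control by -0.97 (SE 0.21, FDR 0.00457). Over the 18 alternatives tried the latter value ranged from -1.10 to -0.67 and was called in each. In XX KO gonads Notch3 was 0.65 above XX control on the log2 scale, which did not pass (SE 0.21, FDR 0.0879), although the libraries did not overlap. It was called without XY control library 1 (0.66, FDR 0.0415) or XX KO library 1 (0.83, FDR 0.0356). At E11.5 Notch3 ranged from 181 to 290.0 CPM over the 12 libraries and no comparison called it.

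Notch1, on chromosome 2 and known from endothelium, and Notch2, on chromosome 3 and broadly expressed in the gonad, were not called at either stage. Notch2 came near the threshold in 1 comparison. Its 3 XX control libraries at E12.5 were at 207, 250 and 192 CPM and its 3 XY control libraries at 336, 268 and 297 CPM, with a log2 fold change of -0.48 (SE 0.17, FDR 0.0524), and 8 of the 18 alternatives tried called it. Between KO and control the member with the miR-18 seed match did not differ beyond the spread between libraries, at -0.08 (95% interval -0.43 to 0.28) in XY gonads and 0.12 (-0.23 to 0.48) in XX gonads at E12.5. The corresponding values at E11.5 were -0.17 (-0.45 to 0.11) and 0.13 (-0.15 to 0.41). The log2 fold change of Notch1 between XY KO and XY control gonads was -0.36 at E11.5 (SE 0.13, FDR 0.0820), where the libraries did not overlap, and -0.21 at E12.5 (SE 0.23), where they did. Without the XY control library 3 the E11.5 value was called at -0.47 (FDR 0.0358), and with libraries scaled by their totals alone at -0.39 (FDR 0.0496).

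Of the ligands, Jag1, a Jagged ligand on chromosome 2 (chr2:137081456-137116644), had the largest difference of the 10 members between the E12.5 control gonads. At E12.5 it stood at 12.1, 10.6 and 15.3 CPM in XX control, at 108, 76.8 and 88.4 CPM in XY control, at 19.6, 31.4 and 19.4 CPM in XX KO and at 28.5, 25.9 and 33.4 CPM in XY KO. The genotypes fell into 3 levels, with XY control highest, XX control lowest and the KO libraries of both sexes overlapping between them. XX control gonads had 0.139 of the XY control level (log2 fold change -2.85, SE 0.22, FDR 2.41e-07) and XY KO gonads 0.322 of it (-1.63, SE 0.20, FDR 4.18e-05). In XX KO gonads Jag1 rose against XX control by 0.90 (SE 0.21, FDR 0.0280). That rise was lost when only the 2 groups compared were fitted (FDR 0.0731), without XX control library 1 (FDR 0.101) and without XX control library 2 (FDR 0.143), with the log2 fold change at 0.79 or above in each of these fits.

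At E11.5 the same gene stood at 85.9, 84.8 and 79.3 CPM in XX control, 102, 101 and 81.0 CPM in XY control, 79.1, 74.6 and 72.5 CPM in XX KO and 70.9, 83.5 and 62.9 CPM in XY KO. The XX KO libraries lay below those of XX control, a difference that was not called (-0.14, SE 0.11, FDR 0.622). The XY control and XY KO libraries overlapped in 1 place, where XY control library 3 lay below XY KO library 2. Jag1 was called lower in XY KO gonads by -0.39 (SE 0.11, FDR 0.0320), a call lost without XY control library 1 or 2 (FDR 0.121 and 0.0531), without XY KO library 1 or 3 (FDR 0.101 and 0.137) and with only the 2 groups in the fit (FDR 0.114). In these fits the value stayed between -0.37 and -0.28.

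Dll4, a Delta-like ligand of endothelial tip cells on chromosome 2, was not called at either stage by edgeR with all libraries and the filter on low counts, and its highest group means were in XX KO. At E12.5 it stood at 10.2, 10.4 and 12.1 CPM in XX control and at 17.7, 15.9 and 19.4 CPM in XX KO, with a log2 fold change of 0.70 (SE 0.19, FDR 0.0521). At E11.5 the XX KO libraries, at 14.6, 13.9 and 22.8 CPM, also lay above the XX control libraries, at 11.4, 10.7 and 9.99 CPM, with a change of 0.68 (SE 0.21, FDR 0.0939). DESeq2 called both, at FDR 0.0148 and 0.0364. With edgeR the E12.5 value was called with no filter on low counts (0.71, FDR 0.0468) and without XY control library 2 (FDR 0.0353) or 3 (FDR 0.0357) or XX KO library 2 (FDR 0.0349), and the E11.5 value without XY control library 1 (FDR 0.0482) or 2 (FDR 0.0490). In XY gonads Dll4 did not differ at E12.5 between KO (14.0 ± 1.46 CPM, SD, n = 3) and control (14.7 ± 4.36 CPM) beyond that spread, with an interval of -0.49 to 0.34 for the log2 fold change.

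Heyl, a Hey family repressor on chromosome 4 (chr4:123233556-123249875) known as a Notch3 target in mural cells, was the target with the largest differences. At E12.5 it stood at 17.3, 18.2 and 24.9 CPM in XX control, at 151, 118 and 129 CPM in XY control, at 31.1, 23.8 and 27.6 CPM in XX KO and at 38.5, 25.0 and 28.5 CPM in XY KO. The XY control libraries stood alone, and the XX KO libraries overlapped with both XX control and XY KO. Heyl was lower in XX than in XY control gonads by -2.72 (SE 0.19, FDR 1.23e-07), and XY KO gonads had 0.231 of the XY control level (-2.11, SE 0.19, FDR 1.52e-06). Both calls held in all 18 alternatives, over which the latter ranged from -2.31 to -1.99. In XX KO gonads the change was 0.45 (SE 0.18, FDR 0.160). At E11.5, where Heyl ranged from 9.82 to 21.0 CPM, no comparison called it, although its 3 XY KO libraries (14.4, 10.1 and 11.4 CPM) lay below the 3 XY control libraries (15.5, 21.0 and 15.7 CPM). That value, -0.54 (SE 0.21, FDR 0.109), was called without XX KO library 2 (FDR 0.0457).

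Hes1, the repressor on chromosome 16 that many pathways besides Notch can induce, showed smaller differences. At E12.5 it stood at 23.7, 26.8 and 28.8 CPM in XX control, at 40.9, 46.6 and 40.9 CPM in XY control, at 43.5, 34.1 and 40.8 CPM in XX KO and at 27.2, 35.8 and 34.6 CPM in XY KO. XX control libraries were below all XY control and all XX KO libraries, and XX KO overlapped with XY control. It was lower in XX than in XY control gonads by -0.70 (SE 0.14, FDR 0.00226) and rose in XX KO gonads against XX control by 0.58 (SE 0.14, FDR 0.0338). The rise was lost with only the 2 groups in the fit (FDR 0.0708) and without any 1 of 4 libraries, XX control 1 or 2 (FDR 0.131 and 0.125) or XX KO 1 or 3 (FDR 0.0841 and 0.128). In XY KO gonads Hes1 was at -0.40 against XY control (SE 0.14, FDR 0.0648), a value that DESeq2 called (FDR 0.0393), as did edgeR without XX KO library 2 (FDR 0.0463). At E11.5 the point estimates were -0.52 between XX and XY control (SE 0.13, FDR 0.0936) and -0.39 between XY KO and XY control (SE 0.13, FDR 0.0649), with the libraries apart in both. The first was called by DESeq2 (FDR 0.0256) and without XY control library 2 (FDR 0.0303, edgeR). The second was called by DESeq2 (FDR 0.0496). With edgeR it was called when libraries were scaled by their totals alone (FDR 0.0456) and without XX control library 3 (FDR 0.0369).

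Hey1, a Hey family repressor on chromosome 3, was called at E11.5 only. It stood then at 44.8, 44.5 and 49.0 CPM in XX control, at 53.0, 48.8 and 45.8 CPM in XY control, at 34.3, 35.6 and 32.7 CPM in XX KO and at 37.3, 43.3 and 34.8 CPM in XY KO. Every KO library lay below every control library. Hey1 was lower in XY KO gonads by -0.35 (SE 0.10, FDR 0.0318) and in XX KO gonads by -0.43 (SE 0.10, FDR 0.0302). The XX call was lost without any 1 of the 6 XX libraries (FDR 0.0573 to 0.125), with the change between -0.46 and -0.39, and the XY call without XY control library 1 (FDR 0.116) or XY KO library 1 (FDR 0.109) or 3 (FDR 0.132), with only the 2 groups in the fit (FDR 0.112) and with no filter on low counts (FDR 0.0539). At E12.5 the values were -0.23 (SE 0.18) in XY and -0.39 (SE 0.18) in XX gonads and passed in neither. Whether the change differed between the stages was not tested.

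Hey2, a Hey family repressor on chromosome 10 known from heart and vessels, was the lowest member and was lower in XX than in XY control gonads at E12.5. Its libraries were at 4.18, 2.37 and 5.31 CPM in XX control and at 6.31, 7.55 and 9.12 CPM in XY control, without overlap, and the log2 fold change was -0.95 (SE 0.31, FDR 0.0392). The call was lost without XX control library 1 or 2 (FDR 0.0763 and 0.155), XY control library 2 or 3 (FDR 0.0843 and 0.123) or XY KO library 2 (FDR 0.0538), and when libraries were scaled by their totals alone (FDR 0.0569). The XX KO libraries (6.70, 5.68 and 3.16 CPM) and XY KO libraries (7.66, 6.48 and 5.65 CPM) overlapped with those of their own controls. Nrarp, a target on chromosome 2 that feeds back on the Notch complex, was not called in any comparison, and ranged from 12.8 to 19.7 CPM at E12.5.

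The core sequence bound by RBPJ, TGGGAA on either strand, was looked for in the 300-base promoters that RefSeq gives for 7 of the 10 members. Hey2 alone held it, with 2 matches, against 25.6% of 32851 promoters with at least 1 match and 3.79% with 2 or more. They are shown in capitals, each in 29 bases on the strand of the gene, which is the minus strand of GRCm38. The first lies at chr10:30842973-30843001, 207 bases upstream of the start, and the second at chr10:30842769-30842797.
Hey2 upstream match: gcgcggtggcaTTCCCAcgcctctgccaa
Hey2 match at the start: gggctgcagcgTGGGAAagaacctccagg
Such a match is not a measured binding site, and Heyl, Hes1 and Hey1 are not in the promoter table.

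Counted together, edgeR called 0 of the 10 members between XX and XY control gonads at E11.5, with 1 at an unadjusted p under 0.05. It called 0.886% of genes (0.359% higher and 0.528% lower) in that comparison. DESeq2 called 1 of the 10 (Hes1), where it called 439 genes in all. At E12.5, 5 of the 10 were lower in XX control (Notch3, Jag1, Hes1, Hey2 and Heyl) and 0 higher, against 23.8% of genes called (12.4% lower and 11.4% higher). The median log2 fold change of the 10 was -0.59, beside 0.01 over all genes tested. In this comparison the libraries of the 2 groups did not overlap for 6 of the 10 members, against 36.6% of all genes.

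When XY KO was set against XY control, 2 of the 10 members were lower at E11.5, against 12.7% of genes called (6.81% lower and 5.88% higher), with a median of -0.26 over the members and -0.03 over all genes. At E12.5, 3 were lower (Notch3, Jag1 and Heyl), against 20.6% of genes called (10.3% in each direction), with medians of -0.22 and -0.01. DESeq2 called 3 members at E11.5, where it called 2347 genes in all, and 4 at E12.5, where it called 3353. The libraries did not overlap for 4 of the 10 members at either stage, against 28.5% of all genes for the earlier stage and 39.1% for the later. This comparison and the one between XX and XY control gonads share the XY control libraries, so their values for a member are not independent of each other. Side by side at E12.5 they were -1.51 (XX control) and -0.97 (XY KO) for Notch3, -2.85 and -1.63 for Jag1, -0.70 and -0.40 for Hes1, -0.95 and -0.21 for Hey2, and -2.72 and -2.11 for Heyl.

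In XX KO against XX control gonads, 1 of the 10 was lower at E11.5 (Hey1), against 3.27% of genes called (1.46% lower and 1.81% higher), and the libraries did not overlap for 3 of the 10, against 24.6% of genes. At E12.5, 2 were higher (Jag1 and Hes1), against 5.26% of genes called (3.42% higher and 1.85% lower), and the median of the 10 was 0.43 beside 0.00 over all genes tested. A further 5 had an unadjusted p under 0.05 without passing the FDR, of which Notch3, Dll4, Heyl and Nrarp were above XX control and Hey1 below. DESeq2 called 4 (Notch3, Jag1, Dll4 and Hes1), where it called 1456 genes in all. With edgeR on these 2 groups alone 0 were called, where 296 genes were called in all. The libraries did not overlap for 6 of the 10, against 23.5% of genes.

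The plot of log2 fold changes gives these comparisons with their intervals.

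**Figure D2:**
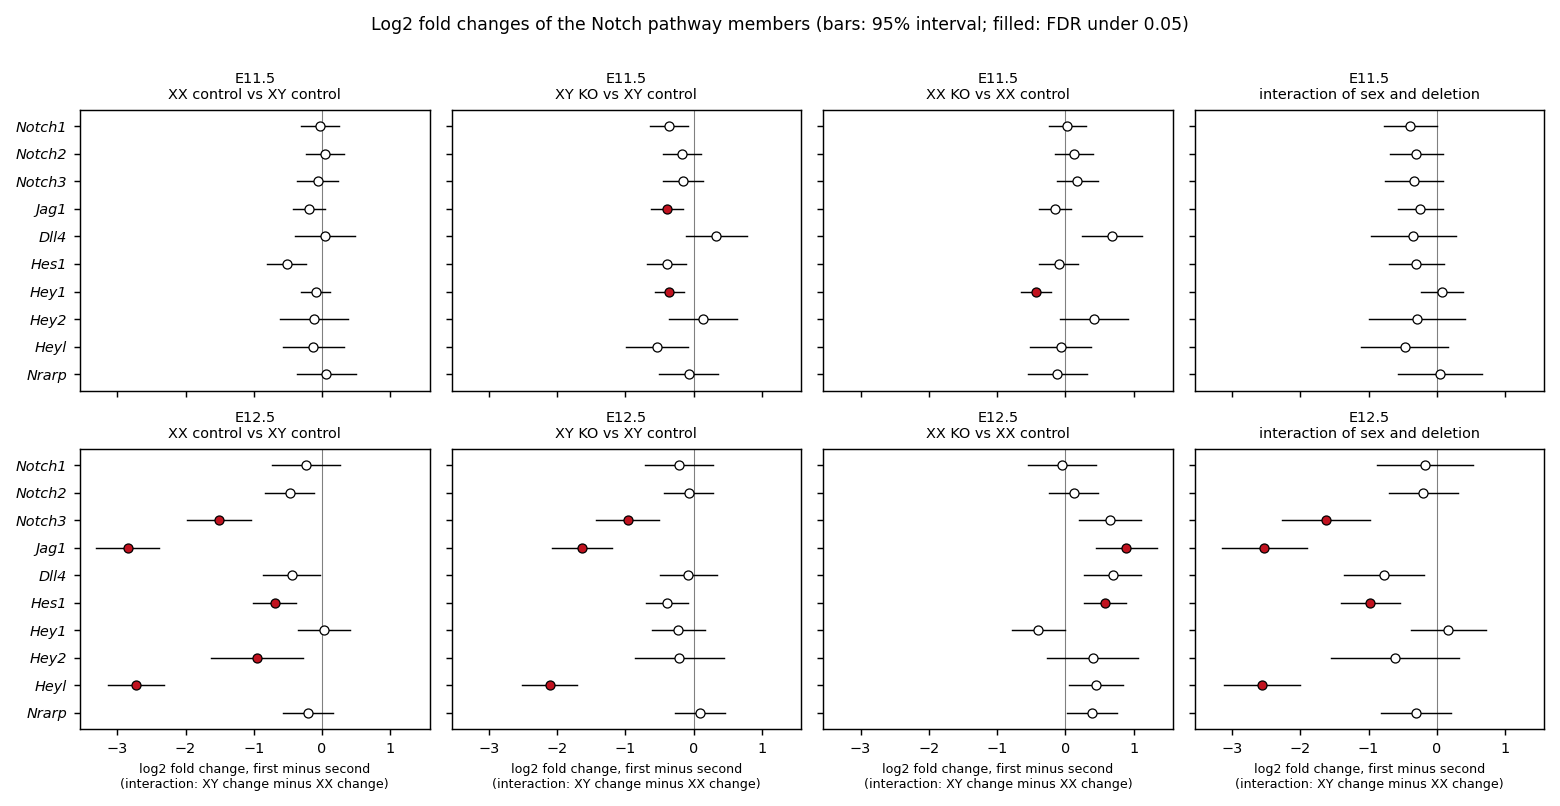
Log2 fold change of each member (horizontal axis, first group minus second, with its 95% interval) in 3 comparisons and in the interaction, at E11.5 (top) and E12.5 (bottom), with members called at an FDR under 0.05 filled. At E12.5 Jag1 and Heyl lie at -1.63 and -2.11 in XY KO against XY control and at 0.90 and 0.45 in XX KO against XX control.

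The effect of the deletion differed between the sexes at E12.5 for 4 of the 10 members, all negative, by the interaction of sex and deletion (the log2 change in XY minus that in XX), against 12.9% of genes called (7.05% negative and 5.90% positive). The interaction was -2.53 for Jag1 (SE 0.29, 95% interval -3.15 to -1.91, FDR 4.00e-05), -2.56 for Heyl (SE 0.26, interval -3.12 to -2.01, FDR 1.37e-05), -1.62 for Notch3 (SE 0.30, interval -2.27 to -0.97, FDR 0.00220) and -0.97 for Hes1 (SE 0.20, interval -1.41 to -0.54, FDR 0.00459). Each of these 4 was called under all 17 alternatives. The interaction also equals the XX against XY difference of the controls minus that of the KO gonads. For Jag1 these were -2.85 and -0.32, and for Heyl -2.72 and -0.16. It is therefore not independent of the difference between the control gonads. At E11.5 the interaction was called for 0 of the 10 by edgeR and for 0 by DESeq2, with 0 at an unadjusted p under 0.05 and 0.0352% of all genes called (0.00703% positive and 0.0281% negative).

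When the KO gonads of the 2 sexes were set against each other at E12.5, 0 of the 10 members were called by edgeR or DESeq2, 0 had an unadjusted p under 0.05, and 0.153% of all genes were called (0.0139% higher and 0.139% lower in XX KO). The libraries were apart for 1 member (Dll4), against 20.1% of genes. The values ran from -0.34 (Hey2) to 0.33 (Dll4). The 95% interval was -0.75 to 0.11 for Jag1, -0.34 to 0.56 for Notch3, -0.55 to 0.23 for Heyl and -0.03 to 0.58 for Hes1, so that differences within these ranges could not be told from 0 with 3 libraries a group. These counts depended on XX KO library 2, the highest of that group for Jag1. Without it edgeR called 1828 genes in place of 22, and Jag1 was called at -0.59 (FDR 0.0487). At E11.5 none was called either, against 0.0844% of genes (0.0352% higher and 0.0492% lower), with 2 of 10 (Notch1 and Notch2) at an unadjusted p under 0.05 and 0 called by DESeq2.

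Levels of different members were compared per length, as CPM per kilobase of annotated exon. In XY control gonads at E12.5 Notch3 (28.1 ± 9.19, SD, n = 3), Notch2 (27.9 ± 3.17) and Heyl (25.9 ± 3.33) were the highest and could not be ordered, as their libraries overlapped. Hes1 (21.0 ± 1.61) overlapped with Notch3 and lay below Heyl, and Jag1 (15.6 ± 2.75) and Hey1 (15.6 ± 4.34) overlapped with each other. Notch1 (6.04 ± 1.77) overlapped with Nrarp (5.92 ± 1.20) and with Dll4 (3.82 ± 1.13), and Hey2 was the lowest (1.67 ± 0.307), apart from all others. In XX control gonads the order was another, with Notch2 (20.1 ± 2.78) and Hey1 (15.9 ± 3.20) on top, overlapping, and with Notch3 (9.88 ± 0.344), Heyl (3.94 ± 0.807) and Jag1 (2.17 ± 0.404) further down. Heyl per length was thus near Notch2 in XY control gonads and below Nrarp (5.13 ± 0.170) in XX control gonads.

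Over the 12 E12.5 libraries, on the log2(CPM + 2) scale, Jag1 and Heyl followed each other most closely among the 45 pairs of members (Pearson's r = 0.944), then Notch3 and Jag1 (0.914) and Notch3 and Heyl (0.830). Dll4 and Nrarp had r = 0.775, and Dll4 and Heyl 0.177. These values describe libraries of 4 genotypes, so a gene that is high in XY control gonads alone gives a high r with any other such gene. The genes outside the pathway lists with the highest r were Itga9 (0.990), Loxl2 (0.990) and Col14a1 (0.986) for Jag1, Casq2 (0.988), Slc38a5 (0.986) and Cbln1 (0.984) for Heyl, and Dpysl5 (0.968), Adamts7 (0.966) and Gpr153 (0.964) for Notch3. They are named as a description only.

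Most mural cell and interstitial progenitor markers were called between the controls at E12.5, and fewer endothelial markers were. Of all genes, 23.8% were called between the controls, 20.6% between XY KO and XY control and 5.26% between XX KO and XX control. Of 8 mural cell markers, 6 were lower in XX than in XY control gonads, 4 were lower and 1 (Kcnj8) higher in XY KO than in XY control, and 2 (Mcam and Kcnj8) were higher in XX KO than in XX control. Their summed level was 224 to 296 CPM in XX control, 550.2 to 843 CPM in XY control, 388 to 432 CPM in XX KO and 390.3 to 450.1 CPM in XY KO. The one with the most counts, Pdgfrb, averaged 103, 271, 178 and 191 CPM in that order. No mural marker was at 0 in a group.

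Of 8 interstitial progenitor markers, 7 were lower in XX than in XY control gonads, 5 were lower in XY KO than in XY control and 4 were higher in XX KO than in XX control. They summed to 920 to 1086 CPM in XX control, 2259 to 2554 CPM in XY control, 1299 to 1764 CPM in XX KO and 1818 to 1852 CPM in XY KO, and Pdgfra, the highest of them, averaged 330, 763, 575 and 753 CPM. All 6 fetal Leydig cell markers were lower in XX control and in XY KO than in XY control gonads, and 0 were called by edgeR between XX KO and XX control, with 2 at an unadjusted p under 0.05. They summed to 871 to 1835 CPM in XY control libraries and to 31.8 to 54.0 CPM in the other 9. The defining gene Cyp17a1 averaged 502 CPM in XY control and 2.35 CPM in XX control, 2.52 CPM in XX KO and 1.39 CPM in XY KO.

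Of 12 endothelial markers, 2 (Cdh5 and Erg) were lower in XX than in XY control gonads, 2 (Pecam1 and Kdr) were higher in XY KO than in XY control and 0 were called by edgeR between XX KO and XX control, with 2 at an unadjusted p under 0.05. Their sums were 643 to 776 CPM in XX control, 649 to 843 CPM in XY control, 735 to 907 CPM in XX KO and 859 to 947 CPM in XY KO, and overlapped between the controls and between XX KO and each other group.

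**Figure D3:**
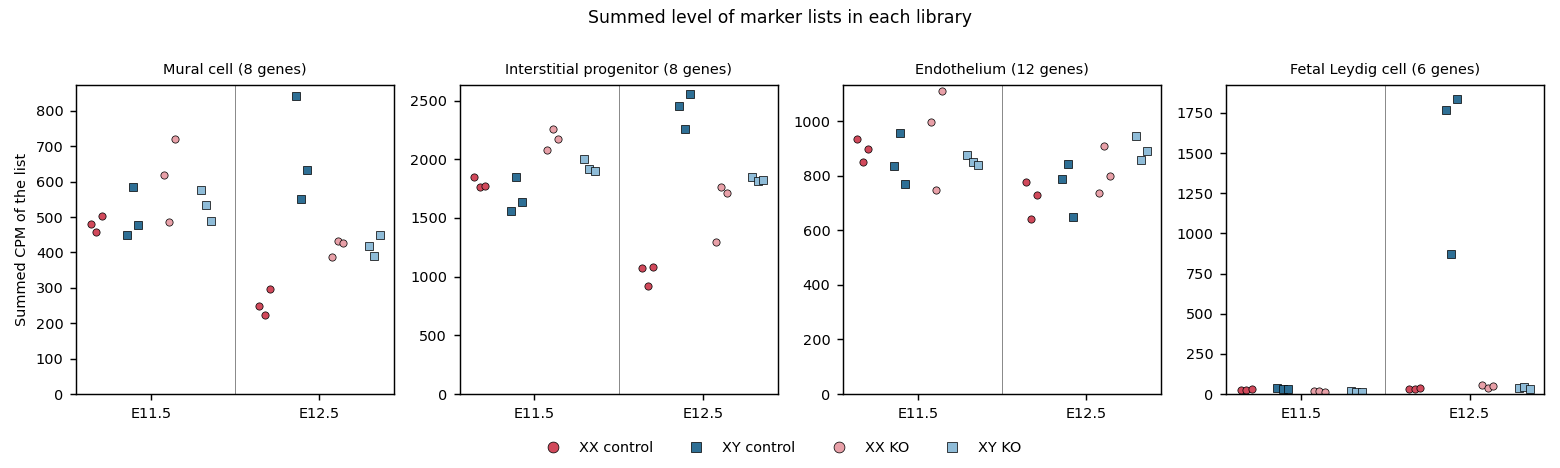
Summed CPM of 4 marker lists (vertical axis, starting at 0) in each library by genotype and stage. At E12.5 the mural sum is 224 to 296 CPM in XX control and 550.2 to 843 CPM in XY control libraries with the KO libraries of both sexes between them, and the fetal Leydig sum exceeds 800 CPM in the 3 XY control libraries alone.

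Set against the mural sum of the same library, the Notch3 values of the 4 genotypes overlapped. It amounted to 26.0% to 36.7% of that sum in XX control, 29.1% to 37.2% in XY control, 23.7% to 34.2% in XX KO and 22.8% to 32.4% in XY KO. Jag1 and Heyl were higher in every XY control library by this measure too. Jag1 was 12.9% to 13.9% of the mural sum in XY control libraries and 4.56% to 7.43% in the other 9, and Heyl was 17.9% to 21.4% and 5.52% to 9.18%. Against the interstitial progenitor sum, Notch3 was 7.21% to 12.8% in XY control and 5.15% to 7.005% in XY KO, without overlap. The Notch3 shares of XX control (7.08% to 8.95%) and XX KO (7.09% to 8.38%) overlapped with XY control. By the same sum Jag1 was 3.40% to 4.42% in XY control and 1.13% to 1.84% in the others. Heyl was 5.04% to 6.16% in XY control and 1.35% to 2.40% in the others. Against the endothelial sum, Notch3 was higher in XY control, at 22.0% to 39.9% there and 10.1% to 17.1% in the others, as were Jag1 (9.10% to 13.8% and 1.56% to 3.75%) and Heyl (14.0% to 19.8% and 2.23% to 4.23%). Hes1 differed by the sum chosen. It was 5.20% to 6.31% of the endothelial sum in XY control, 3.05% to 4.17% in XX control and 2.87% to 4.17% in XY KO, while XX KO (3.76% to 5.91%) overlapped with XY control. Hes1 was not higher in XY control by the mural sum (4.85% to 8.46% there and 9.50% to 11.9% in XX control) or the interstitial sum (1.60% to 2.06% and 2.21% to 2.91%). By both of these sums each KO group overlapped with XY control. These shares were chosen after the values were seen and are a description, and the part of mural, interstitial and endothelial cells in the Notch values was not tested. Shares of the fetal Leydig and Sertoli sums, which were high at E12.5 in XY control libraries alone, were not computed.

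Other lists held called genes as well at E12.5, where 23.8% of all genes were called between the controls, 20.6% in XY KO and 5.26% in XX KO. All 8 Sertoli markers were lower and all 6 pre-granulosa markers higher in XX control and in XY KO than in XY control gonads, with 0 of either called by edgeR between XX KO and XX control, where 1 Sertoli and 2 pre-granulosa markers had an unadjusted p under 0.05. Of 10 mesonephric markers, 4 were higher and 1 lower in XX than in XY control, 8 were higher and 1 lower in XY KO than in XY control and 5 were higher in XX KO than in XX control. Their sum was 39.2 to 46.1 CPM in XY control, 90.1 to 103 CPM in XX control, 82.7 to 150 CPM in XY KO and 117 to 214 CPM in XX KO. Of 8 germ cell markers, 4 were lower in each KO than in its control. Of 7 macrophage markers 1 was higher in XY KO gonads, and of 6 erythroid markers, of which Hba-a1 and Hbb-bt were at 0 in all libraries of at least 1 group and were not tested, 0 were called by edgeR, with 1 or 2 at an unadjusted p under 0.05 in each of these comparisons. The part of these cells in the Notch values was not tested.

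The rest of the pathway was described with 48 further genes in 6 groups, of which 45 were tested at E11.5 and 44 at E12.5. Between XX and XY control gonads 0 of the 45 were called at E11.5, by edgeR or DESeq2, with 6 at an unadjusted p under 0.05, against 0.886% of all genes, and 4 of the 44 were higher and 10 lower in XX control at E12.5, against 23.8% of all genes called. Between XY KO and XY control 3 of them were higher and 2 lower at E11.5 (12.7% of all genes called), and 2 higher and 7 lower at E12.5 (20.6%). In XX KO against XX control gonads 3 were higher at E11.5 (3.27% of all genes called), and 2 higher at E12.5 (5.26%). The interaction at E12.5 was called for 8 of the 44, with 7 negative and 1 positive, against 12.9% of all genes.

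**Figure D4:**
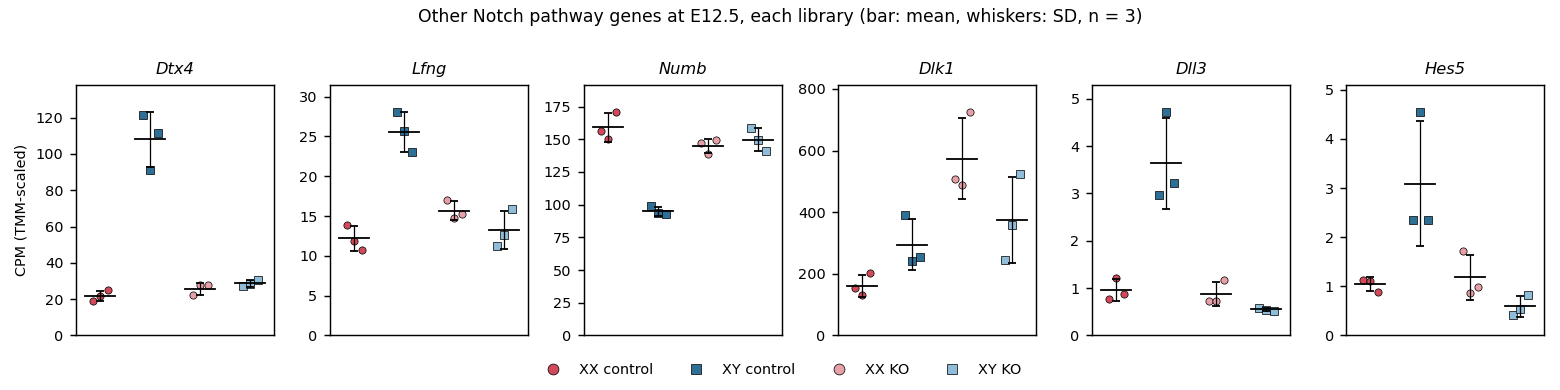
CPM (vertical axis, scaled by TMM, starting at 0) of 6 other Notch pathway genes in each E12.5 library by genotype, with mean and SD. Dtx4 and Lfng are highest, and Numb lowest, in the 3 XY control libraries, while the mean of Dlk1 is highest in XX KO.

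Of 12 genes of receptor turnover and trafficking, 3 were higher (Numb, Neurl1a and Dtx2) and 2 lower in XX than in XY control gonads at E12.5. Of all genes, 11.4% were higher and 12.4% lower. Dtx4, a Deltex family ubiquitin ligase, was among the lower. It stood at 19.1, 21.5 and 24.8 CPM in XX control, at 121, 91.3 and 111 CPM in XY control, at 22.0, 27.6 and 27.7 CPM in XX KO and at 26.9, 28.2 and 30.7 CPM in XY KO. As for Heyl, the XY control libraries stood alone. Dtx4 was lower by -2.31 in XX control (SE 0.15, FDR 6.93e-08) and by -1.91 in XY KO (SE 0.15, FDR 4.77e-07).

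Numb, an adaptor that sends Notch to degradation, went the other way. It stood at 156, 150.0 and 171 CPM in XX control, at 98.7, 93.2 and 92.9 CPM in XY control, at 147, 139 and 149 CPM in XX KO and at 159, 150 and 141 CPM in XY KO. XY control libraries were below all others. Numb was higher in XX control by 0.74 (SE 0.10, FDR 7.85e-05) and in XY KO by 0.66 (SE 0.10, FDR 0.000294). Neurl1a and Dtx2, also ubiquitin ligases of the pathway, were higher in XX than in XY control by 0.58 (FDR 0.0218) and 0.56 (FDR 0.0304), calls that held in 9 and 8 of the 12 fits that each left out 1 library. Likewise Neurl1b, a Neuralized ubiquitin ligase that acts on ligands, was higher in XX KO than in XX control by 0.66 (FDR 0.0398), called in 7 of those 12 fits.

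Of 5 glycosylation genes, 2 were lower in XX than in XY control gonads at E12.5, against 12.4% of all genes. In XY KO 1 was higher and 1 lower than in XY control, against 10.3% of all genes in each direction. Lfng, the Fringe enzyme that tunes receptors towards Delta-like ligands, was chosen for naming after its values were seen. It averaged 12.2 ± 1.58 CPM in XX control, 25.6 ± 2.51 in XY control, 15.7 ± 1.21 in XX KO and 13.2 ± 2.38 in XY KO (SD, n = 3 each), and was lower by -1.07 in XX control (FDR 0.000190) and by -0.95 in XY KO (FDR 0.000645). Poglut1, which puts glucose on the EGF repeats of Notch, was higher in KO gonads at E11.5, by 0.55 in XY (SE 0.09, FDR 0.00119) and 0.39 in XX (SE 0.09, FDR 0.0240), and at E12.5 by 0.43 in XY (SE 0.11, FDR 0.0130). Rfng, another Fringe enzyme, was lower in XY KO gonads at E11.5 by -0.39 (FDR 0.0434), a call that held in 3 of the 12 fits without 1 library. For Poglut1 the E11.5 call held in 12 of 12 in XY and 7 of 12 in XX gonads, and the E12.5 call in 10 of 12.

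Of 5 tested further ligands and receptors, 2 were lower in XX than in XY control gonads at E12.5, against 12.4% of all genes. Dll3, an atypical Delta-like ligand at low level, was at 2.96, 4.73 and 3.21 CPM in XY control libraries and at 0.773 to 1.21 CPM in XX control, with a log2 fold change of -1.93 (SE 0.32, FDR 0.000365), and was lower by -2.73 in XY KO (SE 0.33, FDR 3.44e-05), where it rested on 8 to 19 counts a library. Dlk1, a Delta-like protein without the domain that activates receptors, was higher in KO gonads of both sexes at E11.5, by 0.56 in XY (FDR 0.00736) and 0.88 in XX (FDR 0.00103). At E12.5 it stood at 153, 131 and 201 CPM in XX control and at 508, 487 and 726 CPM in XX KO, a rise of 1.83 (SE 0.27, FDR 0.00596), and its XY KO libraries (246, 359 and 523 CPM) overlapped with those of XY control (389, 241 and 254 CPM). Jag2, a Jagged ligand, was lower in XY KO gonads at E11.5 by -0.79 (SE 0.16, FDR 0.00506).

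Of 10 genes of receptor cleavage, 2 were lower in XX than in XY control gonads at E12.5, against 12.4% of all genes. The gamma-secretase subunit Ncstn was higher in KO gonads at E11.5, by 0.29 in XY (FDR 0.0325, held in 7 of the 12 fits without 1 library) and 0.32 in XX (FDR 0.0462, held in 3 of 12). Of 10 genes of the nuclear complex 1 was higher and 1 lower between XX and XY control at E12.5, against 11.4% and 12.4% of all genes. Between XY KO and XY control 0 were called by edgeR, where 2 had an unadjusted p under 0.05, against 20.6% of all genes called. Of the further Hes genes 2 were tested at E12.5, and Hes5, a Notch target best known from neural progenitors, was lower than in XY control by -1.57 in XX control (SE 0.38, FDR 0.00683) and by -2.33 in XY KO (SE 0.40, FDR 0.000629), from 3.08 ± 1.27 CPM in XY control (SD, n = 3) to 1.04 ± 0.143 and 0.589 ± 0.209 CPM. The first of these calls was lost without XY control library 2 (-1.17, FDR 0.0512).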

How the data were processed

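RNA-seq was made from 24 libraries, 3 for each of 4 genotypes at E11.5 and E12.5, with a different stranded kit at each stage. The authors aligned paired reads to mm10 and counted them per gene with featureCounts from the R package subread, and deposited raw counts. The aligner's version, the annotation, and the settings for strand and multiple mapping are not given in the sources used here. Genes with at least 1 CPM in at least 2 libraries of a stage were tested with edgeR 4.0.16 (TMM, robust quasi-likelihood F test, R 4.3.3) on all 12 libraries of the stage, with Benjamini-Hochberg adjustment. Intervals are 95% intervals from the t distribution with edgeR's degrees of freedom. The test was tried on simulated counts first. DESeq2 1.42.0, other scalings and filters, fits of 2 groups alone, a replicate block and leaving out each library were the alternatives. CPM per kilobase used the union of annotated exons.

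All 10 members were named, with other pathway genes called between the controls or between a KO and its control (where over 6 were called, the 3 largest in each direction), the 3 genes outside the pathway lists with the highest r for each member called in XY KO at E12.5, and of each marker list the gene with the highest mean CPM and those at 0 in a group. Lfng was named outside this rule, after its values were seen. Members and lists were chosen with earlier results of these data known. A further 12 columns of counts, from another mutant line, were not used here.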

Additional observations from a re-analysis of the deposited data

Results flagged for a closer look

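In 4 of the 10 members and 8 of the 44 other pathway genes the effect of the deletion differed between XY and XX gonads at E12.5 by a test of the difference itself (interaction of sex and deletion, edgeR quasi-likelihood test, FDR over all genes tested), against 12.9% of all genes. The 4 members and the 6 other genes named in the report are given here, and the remaining 2, outside the rule for named genes, were Aph1b (-0.65, FDR 0.0492) and Hes6 (-1.06, FDR 0.0294). The interaction, the log2 change in XY minus that in XX, was -1.62 for Notch3 (FDR 0.00220), -2.53 for Jag1 (FDR 4.00e-05), -0.97 for Hes1 (FDR 0.00459) and -2.56 for Heyl (FDR 1.37e-05) among the 10 members. Of the other pathway genes named, it was -2.59 for Dll3 (FDR 0.00171), -1.48 for Dlk1 (FDR 0.0175), -1.31 for Lfng (FDR 0.00131), 0.79 for Numb (FDR 0.00183), -2.16 for Dtx4 (FDR 8.41e-06) and -2.50 for Hes5 (FDR 0.00734). The call for Dlk1 was lost without XY control library 1 (-1.24, FDR 0.0555) or XX KO library 3 (-1.28, FDR 0.0532). The other 9 of these genes, among them Lfng, which was named outside the rule, were called under each of the 17 alternatives. In the same test 5 of 8 mural, 6 of 8 interstitial progenitor and 6 of 6 fetal Leydig cell markers were negative and called, and their part in these values was not tested. The interaction uses the same libraries as the difference between the control gonads and is not independent of it. Groups of 3 libraries are too small for the test of single outlying samples.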

How the results depend on the processing

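At E12.5 the counts of members called between the controls, between XY KO and XY control and for the interaction stayed within 1.5 times of 5, 3 and 4 under every alternative, with 4 to 6, 3 to 4 and 4 to 5 when 1 library was left out. The smaller counts moved. DESeq2 called 1 member in place of 0 between the controls at E11.5, 2 in place of 1 in XX KO at E11.5 and 4 in place of 2 in XX KO at E12.5. Over all genes it called 439, 778 and 1456 in these comparisons, in place of 126, 465 and 755. In XY KO at E11.5, 4 were called with scaling by library size only, 1 with no filter on low counts and 0 with only the 2 groups in the fit, in place of 2, and in XX KO at E12.5 the fit of 2 groups called 0. Over all genes these fits called 1807, 1586 and 779 in XY KO at E11.5, and 296 in XX KO at E12.5. Leaving out 1 library gave 0 to 1 between the E11.5 controls (1 without XY control library 2), 0 to 3 in XY KO at E11.5, 0 to 2 in XX KO at E11.5 (0 without any 1 of its 6 libraries), 0 to 3 in XX KO at E12.5 (0 without XX control library 1 or 2) and 0 to 1 between the KO gonads at E12.5. Dll4 was called without XY control library 3 at E12.5 between the controls (-0.62, FDR 0.0278, edgeR) and for the interaction (-0.95, FDR 0.0217). Over all genes, edgeR called 2495 in place of 126 between the E11.5 controls and 2891 in place of 1804 in XY KO at E11.5 without XY control library 2, and in XX KO at E12.5, in place of 755, 35 without XX control library 1, 83 without XX control library 2, 117 without XX KO library 3 and 1670 without XX KO library 2. Over 58 gene results called under at least 1 setting, 1033 alternative fits gave 916 with the same call, 85 that lost it, 32 that gained it and 0 that turned its direction. These counts leave out 71 member values called under no setting, whose alternatives gave 56 changes of sign. The cause of the changed calls was not tested.

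The labels do not say whether replicate numbers mark paired samples. Deviations of libraries with the same number correlated at -0.304 to 0.450 at E11.5 and -0.507 to 0.388 at E12.5. Libraries with different numbers were not compared in this way, so these values cannot decide whether samples were paired. With the number as a block, 4 in place of 5 members were called between the E12.5 controls, with Hey2 lost (-0.97, FDR 0.0518, edgeR), and no other member's call changed.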
